A study of Mus musculus with 21 samples.

Results

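The values concern 9 genes that encode proteins of actin filaments and focal adhesions in cultured mouse aortic smooth muscle cells: Vcl, Tln1, Zyx, Tpm1, Tpm2, Tpm4, Cald1, Actn1 and Flna. Every probe set annotated with one of these symbols was taken, which gave 25 of the 45101 probe sets on the Affymetrix array, for 9 of the 18194 genes it names singly. A probe set is a group of short probes against one transcript, and its signal is an intensity in arbitrary units. Of the 25 probe sets, 22 passed the filter on dim signals (a signal over the array's own median on 3 or more of the 15 arrays taken at 24 h), as did 25110 of all probe sets. The other 3, Tpm1 1447713_at, Cald1 1433146_at and Tln1 1457782_at, lay above the median on 0 of 15 arrays and were not tested. All 9 genes kept at least 1 tested probe set.

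The donors of the aortas were male mice of the C57BL/6J strain aged 10 to 12 weeks, and the cells grew in medium with 10% fetal calf serum. They received the cytokine tumour necrosis factor (TNF, 1 ng/ml) together with an antibody against the lymphotoxin beta receptor (anti-LTBR, 10 µg/ml), TNF alone at 1 ng/ml, anti-LTBR alone at 10 µg/ml, or PBS alone, the solution in which the stimuli were given. At 24 h there were 3 arrays for TNF plus anti-LTBR (numbered 1 to 3 in the labels), 4 for TNF, 4 for anti-LTBR and 4 for PBS (numbered 0 to 3). At 2 h and at 6 h TNF, anti-LTBR and PBS had 1 array each, all with the number 0. What the numbers stand for is not given in the labels, nor whether arrays of a group come from separate animals or cultures, so a p-value sets a change against the spread of these arrays alone, which may be technical.

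Smooth muscle cells contract by pulling on bundles of actin filaments, which end in focal adhesions, protein plaques that tie the filaments through integrins to the matrix outside the cell. Talin (Tln1) binds integrin tails, vinculin (Vcl) binds talin and actin and strengthens the link under load, and zyxin (Zyx) joins adhesions and filaments under tension. Tropomyosins (Tpm1, Tpm2, Tpm4) are coiled coils that lie along the filament, caldesmon (Cald1) holds back the myosin motor on it, and alpha-actinin 1 (Actn1) and filamin A (Flna) cross-link filaments. Many such genes are known targets of serum response factor, which binds a DNA element named the CArG box.

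The promoter sequences of 3 members are shown because they are the only one with a CArG box (Vcl), the only one with an NF-kB motif (Flna), and that of the gene with the most probe sets that changed (Tpm2). They come from RefSeq (build GRCm38.p6) and cover the 250 bases before the annotated start, 5′ to 3′ on the gene's strand, with motif letters in capitals. Vcl lies on the plus strand (chr14:20929148-20929397), and Tpm2 (chr4:43523555-43523804) and Flna (chrX:74246535-74246784) lie on the minus strand.
Vcl: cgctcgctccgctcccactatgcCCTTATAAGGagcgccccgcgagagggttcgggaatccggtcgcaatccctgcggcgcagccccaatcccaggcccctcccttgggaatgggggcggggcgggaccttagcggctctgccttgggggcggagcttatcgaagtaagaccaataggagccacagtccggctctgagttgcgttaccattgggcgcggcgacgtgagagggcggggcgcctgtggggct
Tpm2: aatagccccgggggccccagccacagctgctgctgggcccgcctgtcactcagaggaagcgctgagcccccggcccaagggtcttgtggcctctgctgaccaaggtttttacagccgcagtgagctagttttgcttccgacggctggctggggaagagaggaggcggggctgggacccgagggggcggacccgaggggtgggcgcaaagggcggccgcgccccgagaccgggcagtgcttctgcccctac
Flna: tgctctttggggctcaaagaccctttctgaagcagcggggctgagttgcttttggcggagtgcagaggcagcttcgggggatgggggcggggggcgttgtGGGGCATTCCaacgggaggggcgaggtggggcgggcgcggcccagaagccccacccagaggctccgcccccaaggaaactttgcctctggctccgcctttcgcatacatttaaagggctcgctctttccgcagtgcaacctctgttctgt
RefSeq held 10 such windows for the 9 members, and each was searched on both strands, from 250 bases before to 50 after the start. A CArG box, spelled CC, then 6 bases that are A or T, then GG, was found in the Vcl window alone, 227 bases before the start, and in 1.63% of the 32851 mouse promoters of the same length. An NF-kB motif was found in the Flna window alone, 150 bases before the start, and in 4.51% of all promoters; the motifs do not overlap one another. GC content was 66.7% for Vcl, 70.3% for Tpm2 and 62.0% for Flna, against a median of 52.7% over all promoters. These matches describe the letters of the windows and say nothing of binding.

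The trimmed mean signal was 500.0 on each array, and array medians lay between 106.8 and 139.0. Arrays with the same number varied together at 24 h. Over all tested probe sets, with group means removed, the 21 same-number pairs of arrays correlated at 0.401 to 0.762 and the 63 other pairs at -0.536 to 0.223. Removing group means by itself pushes the other pairs down when same-number pairs are positive. For 15 of 15 arrays the closest array of another group carried the same number. The changes below are therefore differences within numbers. The arrays with number 0 stood apart: Pecam1 and Cdh5, defining markers of endothelial cells, had signals of 4438 to 5653 and 1248 to 1474 there, against 40.3 to 375.5 and 74.0 to 291.6 on arrays 1 to 3. The summed signal of 18 endothelial markers was 25929 to 27372 for number 0, 6226 to 6657 for number 1, 3237 to 4302 for number 2 and 3504 to 3904 for number 3. Not every endothelial marker showed this excess: Kdr averaged 262.2 ± 14.2 (SD) over the 4 TNF arrays, number 0 among them. Over the 3 TNF plus anti-LTBR arrays, none of which has the number 0, Kdr averaged 271.9 ± 35.9. Myh11, the smooth muscle myosin heavy chain, was at 110.7 to 152.1 on the number 0 arrays and 529.2 to 3338 on the others, while Acta2, the smooth muscle actin, averaged 17803 on the number 0 arrays and 18214 on the others. No array of TNF plus anti-LTBR has the number 0, so the counts of calls among the members, the related genes and the markers are also given without the number 0 arrays.

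After 24 h of TNF plus anti-LTBR, 11 of the 22 tested probe sets of these genes fell relative to PBS and 0 rose (limma with the array number as a block, adjusted p under 0.05 over all tested probe sets). Of all tested probe sets 8.00% fell and 7.05% rose. The falls lay in 5 genes: the adhesion protein Vcl, the tropomyosins Tpm1 and Tpm2, the caldesmon gene Cald1 and the cross-linker Actn1. Tpm4, Flna, Zyx and Tln1 had no probe set past the threshold. Several probe sets read the same gene, so the 22 are not independent. By the brightest probe set of each gene 4 of 9 fell, where 9.53% of all tested genes fell. With TNF alone 3 of 9 and with anti-LTBR alone 2 of 9 did, where 2.32% and 1.77% of all tested genes fell. The estimate was below 0 for 21 of 22 probe sets, with a median log2 change of -0.26, while the median over all tested probe sets was -0.01 and 51.6% of them lay below 0. For 5 of the 22 every combination array lay below every PBS array, as for 4.64% of all probe sets. With the number 0 arrays left out, 10 fell, against 7.32% of all probe sets. With no replicate block 2 fell, Vcl 1416156_at and Tpm2 1425028_a_at, against 0.434% of all probe sets, and 5 of the 22 had an unadjusted p under 0.05. The arrays measure RNA of whole cultures, in which fewer cells of a type and less RNA per cell cannot be told apart.

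**Figure D1:**
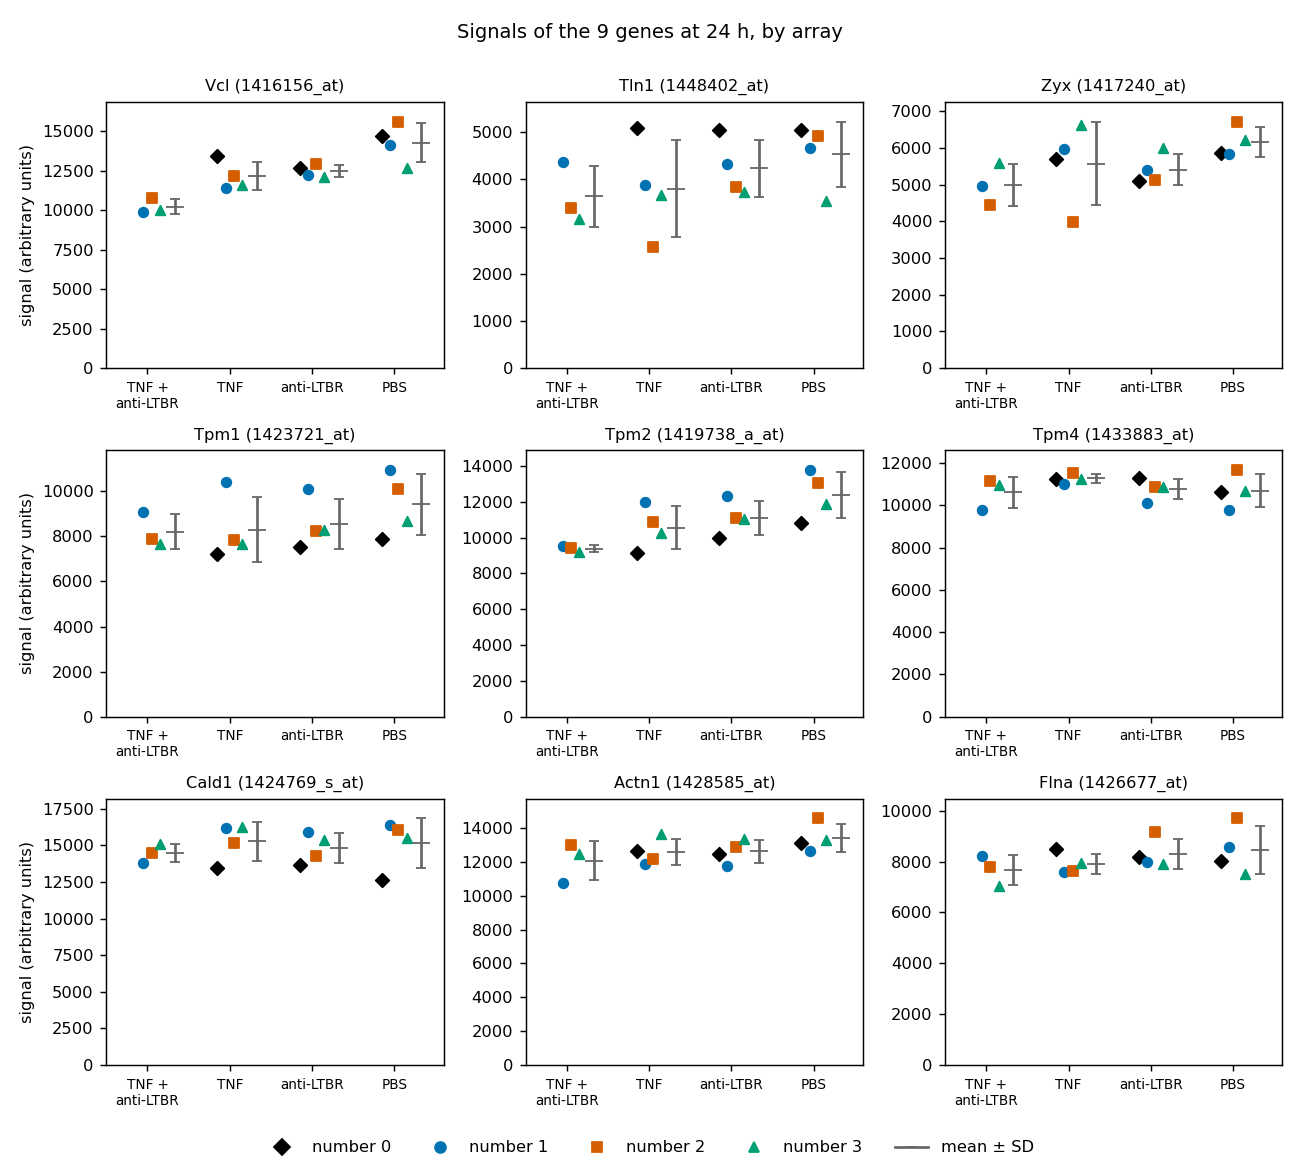
Signal (arbitrary units, linear axis from 0) of the brightest probe set of each of the 9 genes at 24 h, with 1 point per array, coloured and shaped by array number, and a grey bar for mean and SD (n = 3 for TNF plus anti-LTBR, n = 4 for the other groups). For Vcl and Tpm2 the TNF plus anti-LTBR arrays lie below every PBS array, and for Tpm4 the groups overlap.

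Vcl, the tension-bearing link between talin and actin, fell under every treatment on its brighter probe set. Signals of Vcl 1416156_at were 9874, 10762 and 10004 with TNF plus anti-LTBR, 13403, 11413, 12179 and 11614 with TNF, 12661, 12216, 12945 and 12089 with anti-LTBR and 14717, 14125, 15600.3 and 12634 with PBS, in the order of the array numbers. All 3 combination arrays lay below all 4 PBS arrays, and also below every TNF and every anti-LTBR array. The means were 10214 ± 479 with both agonists (SD, n = 3), 12152 ± 895 with TNF, 12478 ± 396 with anti-LTBR and 14269 ± 1247 with PBS (n = 4 each). Against PBS the combination fell by 27.0%, a log2 change of -0.45 ± 0.045 (SE, adjusted p = 1.28e-05; 0.00309 with no replicate block). It was lower within 3 of 3 numbers, by log2 differences of -0.52, -0.54 and -0.34. The call for the combination was kept under all 29 other settings tried. The calls of this probe set for TNF alone and anti-LTBR alone ended under 6 and 12 of the 29. Both ended with no replicate block and with arrays scaled to equal medians, and that for anti-LTBR also in 5 fits without a single array.

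The second Vcl probe set, 1416157_at, is dimmer and varied more between numbers. Its signals were 1416, 1604 and 1281 with TNF plus anti-LTBR, 2210.3, 1844, 1623 and 1332 with TNF, 2168, 1955, 1973 and 1761 with anti-LTBR and 2225, 2729.9, 2603 and 1689 with PBS. The combination arrays lay below all PBS arrays, by a narrow margin for PBS number 3. It fell by 34.7%, a log2 change of -0.62 ± 0.11 (adjusted p = 0.00176; 0.077 with no replicate block), so both Vcl probe sets moved the same way.

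Tln1 and Zyx, the other focal adhesion proteins, did not pass the threshold against PBS. Signals of Tln1 1448402_at were 4380.3, 3386 and 3162 with TNF plus anti-LTBR, 5094, 3878, 2577 and 3679 with TNF, 5058, 4337, 3836 and 3729 with anti-LTBR and 5044, 4664, 4918 and 3535 with PBS. The groups overlap, and within each number the combination array was the lower one, with the widest gap for number 2. Its log2 change was -0.22 ± 0.13 (adjusted p = 0.307, interval -0.50 to 0.06 at 95%), and that of the dimmer Tln1 1436042_at was -0.26 ± 0.12 (adjusted p = 0.191).

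For Zyx 1417240_at the arrays read 4976, 4447 and 5592 with TNF plus anti-LTBR, 5701, 5984, 3987 and 6630.4 with TNF, 5115, 5395, 5136 and 6014 with anti-LTBR and 5878, 5836, 6725 and 6228 with PBS. The 3 combination arrays lay below all 4 PBS arrays, and TNF number 2 was the lowest array of all. The log2 change was -0.31 ± 0.11 (adjusted p = 0.0734, interval -0.55 to -0.08). It passed the threshold without the array TNF number 2 (log2 -0.33, adjusted p = 0.00291) and without all arrays of number 2 (log2 -0.22, adjusted p = 0.0116), so whether Zyx passes turns on that number. The dimmer Zyx 1438552_x_at was at 334 to 711 with both agonists and 404 to 860.2 with PBS, a log2 change of -0.12 ± 0.21 (adjusted p = 0.781).

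The 3 tropomyosin genes gave different counts of calls, and the difference between the genes was not tested. Tpm2, the beta-tropomyosin of smooth muscle filaments, fell on 3 of its 4 probe sets with both agonists, Tpm1 fell on 2 of its 3 tested ones, and the single Tpm4 probe set did not pass the threshold. Tpm2 1425028_a_at read 6719, 6846 and 6380.4 with TNF plus anti-LTBR, 6743, 9010.1, 8537 and 7198 with TNF, 7569, 8938, 8483 and 8136 with anti-LTBR and 8375, 10868, 10229 and 8981 with PBS. Every combination array lay below every PBS array, while number 0 was the lowest of its group with TNF, with anti-LTBR and with PBS. The change was -0.58 ± 0.046 on the log2 scale (adjusted p = 1.88e-06; 0.0205 with no replicate block), a signal that fell by 33.3%. Within numbers 1, 2 and 3 the log2 differences were -0.69, -0.58 and -0.49.

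Tpm2 1419738_a_at gave 9529.5, 9447 and 9195 with TNF plus anti-LTBR, 9147, 11973, 10869 and 10253 with TNF, 10005, 12328, 11090.2 and 11028 with anti-LTBR and 10827, 13781, 13061 and 11904 with PBS. The groups were ordered as on the first Tpm2 probe set, with no overlap between the combination and PBS. It fell by 27.0%, a log2 change of -0.45 ± 0.037 (adjusted p = 2.56e-06; 0.061 with no replicate block). The suffix x_at marks probes that can match further transcripts, and Tpm2 1449577_x_at, with signals of 215 to 612 under both agonists and 363 to 1018 under PBS, fell by 42.2% (log2 -0.79 ± 0.13, adjusted p = 0.000845; 0.601 with no replicate block). Its groups overlap, and number 1 was the brightest array of each group at 24 h. The fourth probe set, Tpm2 1419739_at, had a log2 change of -0.18 ± 0.17 (adjusted p = 0.568) at signals of 209 to 274 against 226 to 316.

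Signals of Tpm1 1423721_at, the alpha-tropomyosin gene, were 9092, 7889.7 and 7673 with TNF plus anti-LTBR, 7242, 10428, 7839 and 7673 with TNF, 7536, 10118, 8234 and 8287 with anti-LTBR and 7908, 10955, 10127 and 8692 with PBS. Number 1 was the brightest in all 4 groups, and the groups overlap, although each combination array lay below the PBS array of its number. The log2 change was -0.26 ± 0.050 (adjusted p = 0.00304; 0.775 with no replicate block), and the call ended with arrays scaled to equal medians (adjusted p = 0.0633). Tpm1 1423049_a_at, at 7652, 6487 and 5507 with both agonists and 6898, 10562, 9291 and 7415 with PBS, fell by 25.9% (log2 -0.43 ± 0.069, adjusted p = 0.000662; 0.559 with no replicate block). Here too the ranges overlap and the difference is seen within numbers. The dim Tpm1 1456623_at, at 118 to 146 against 79.1 to 152, was the only member probe set with an estimate above 0, at 0.18 ± 0.16 (adjusted p = 0.55).

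Tpm4, a tropomyosin of the cytoskeleton of many non-muscle cells, read 9763, 11136 and 10951 with TNF plus anti-LTBR, 11263, 11027, 11547 and 11259 with TNF, 11272, 10119, 10879 and 10848 with anti-LTBR and 10638, 9765, 11673 and 10669 with PBS on 1433883_at. The 4 groups overlap. The log2 change for the combination was 0.00 ± 0.039, with an interval of -0.09 to 0.08 (adjusted p = 0.982), a range that does not reach the estimates of the called Tpm1 and Tpm2 probe sets.

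Cald1, which encodes the caldesmon that damps myosin on the filament, fell on 2 of its 4 tested probe sets with both agonists. Signals of Cald1 1424770_at were 2213, 3747 and 3950.5 with TNF plus anti-LTBR, 3872, 3792, 4604 and 5117 with TNF, 3614, 3737, 4579.8 and 4802 with anti-LTBR and 3730.3, 3249, 4738 and 5029.6 with PBS. Combination number 1 was the lowest of all 15 arrays, and the other combination arrays lay within the PBS range. The log2 change was -0.42 ± 0.076 (adjusted p = 0.00176; 0.615 with no replicate block), and within numbers 1, 2 and 3 it was -0.55, -0.34 and -0.35. TNF alone left this probe set at 0.06 ± 0.069 (adjusted p = 0.719) and anti-LTBR alone at 0.01 ± 0.069 (adjusted p = 0.966).

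The brighter Cald1 1424768_at was at 11602, 12564 and 12829.7 with both agonists and 11646, 14807, 14043 and 14639 with PBS, a log2 change of -0.21 ± 0.055 (adjusted p = 0.0195; 0.672 with no replicate block). The call ended without combination number 1 (adjusted p = 0.14), PBS number 1 (0.0726), PBS number 2 (0.0595), all arrays of number 1 (0.235) or all of number 3 (0.0975). It also ended with arrays scaled to equal medians (0.104), with quantile normalization (0.0916) and with no variance trend (0.0922). Cald1 1424769_s_at, at 14470 ± 629 with both agonists and 15146 ± 1702 with PBS, had a log2 change of -0.12 ± 0.046 (adjusted p = 0.105), and the dim Cald1 1433147_at one of -0.28 ± 0.18 (adjusted p = 0.377).

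Actn1, which ties actin filaments into bundles, fell on 2 of its 3 probe sets. Actn1 1428585_at read 10764, 12993 and 12445 with TNF plus anti-LTBR, 12620.4, 11882, 12156 and 13650.5 with TNF, 12481, 11772, 12871 and 13356 with anti-LTBR and 13113, 12652, 14577 and 13297 with PBS. Combination number 2 was above the lowest PBS array, and each combination array was below the PBS array of its number. The change was small, -0.16 ± 0.046 on the log2 scale (adjusted p = 0.032; 0.532 with no replicate block), and ended without PBS number 1 (adjusted p = 0.0988), PBS number 2 (0.106), combination number 1 (0.171) or combination number 3 (0.105). Its adjusted p was 0.0552 without the number 0 arrays, 0.287 without number 1 and 0.072 without number 3, and 0.0804 to 0.246 with equal medians, quantile normalization, no filter or no variance trend.

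On Actn1 1427385_s_at, whose probes can match several transcripts, the signals were 1368, 2364 and 2179 with both agonists and 1802, 2292, 3227 and 2679 with PBS. The log2 change was -0.44 ± 0.090 (adjusted p = 0.00406; 0.73 with no replicate block), and without all arrays of number 1 the adjusted p was 0.0771. Actn1 1452415_at had 1 high combination array, at 1162, 2397 and 1068 against 1449, 1849, 1582 and 1442 with PBS. Its log2 change of -0.11 ± 0.21 (adjusted p = 0.811) became -0.54 (adjusted p = 0.0092) without combination number 2 and -0.49 (adjusted p = 0.0173) without all arrays of that number.

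Flna, the cross-linker that joins filaments at angles into networks, read 8199, 7771 and 7054 with TNF plus anti-LTBR, 8475, 7588, 7626 and 7923 with TNF, 8172, 7974, 9166 and 7899.6 with anti-LTBR and 8014, 8556, 9698 and 7509 with PBS on 1426677_at. The ranges overlap, and PBS number 2 was the highest array. The log2 change with both agonists was -0.13 ± 0.069 (adjusted p = 0.244, interval -0.28 to 0.02).

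**Figure D2:**
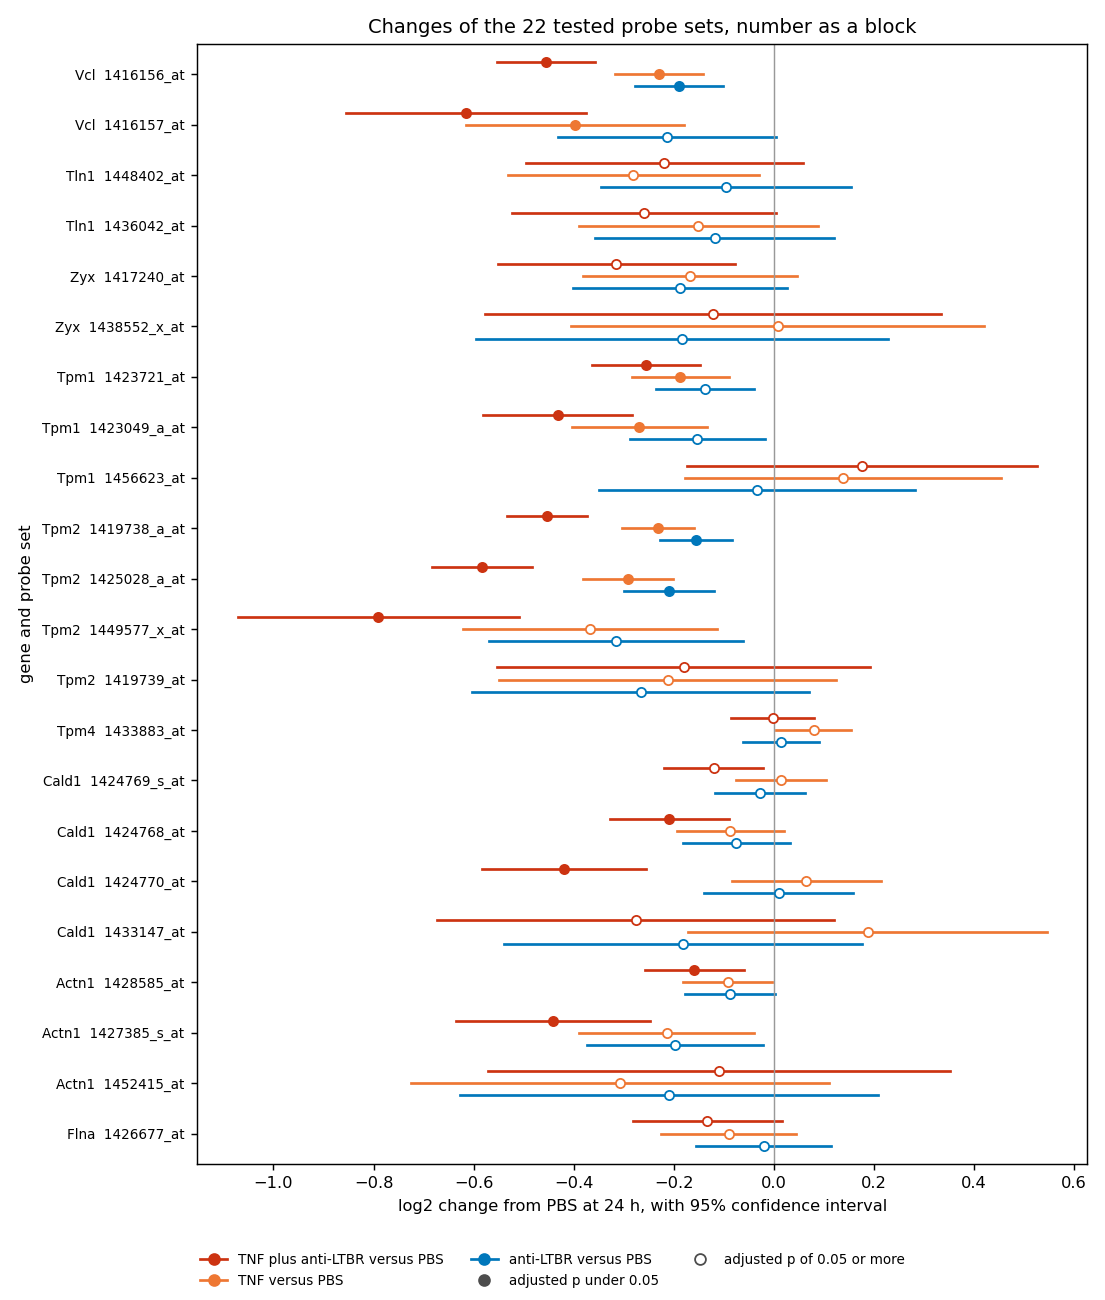
Log2 change at 24 h of the 22 tested probe sets under TNF plus anti-LTBR, TNF and anti-LTBR, each against PBS, with 95% intervals and filled points for an adjusted p under 0.05. The filled points, 11, 6 and 3 for the 3 treatments, all lie below 0.

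With TNF alone 6 of the 22 probe sets fell against PBS and 0 rose, in Vcl, Tpm1 and Tpm2, where 1.81% of all tested probe sets fell and 2.30% rose. The median log2 change was -0.18, against -0.02 over all probe sets, and 16 of 22 estimates lay below 0. Vcl 1416156_at fell by 14.7% (log2 -0.23 ± 0.041, adjusted p = 0.00539) and Vcl 1416157_at fell by 24.1% (adjusted p = 0.0433). The tropomyosin changes were -0.29 ± 0.042 (adjusted p = 0.00118) for Tpm2 1425028_a_at and -0.23 ± 0.034 (adjusted p = 0.00128) for Tpm2 1419738_a_at. For Tpm1 they were -0.19 ± 0.045 (adjusted p = 0.0337) on 1423721_at and -0.27 ± 0.063 (adjusted p = 0.0273) on 1423049_a_at. Within numbers 0 to 3 the Tpm2 1425028_a_at differences were -0.31, -0.27, -0.26 and -0.32, all of similar size, while those of Vcl 1416156_at were -0.13, -0.31, -0.36 and -0.12. Tln1 and Zyx were uneven: the TNF differences for Tln1 1448402_at were 0.01, -0.27, -0.93 and 0.06, and number 2 held the largest for Zyx 1417240_at as well, at -0.75 against -0.04 to 0.09 for the others. Actn1 1452415_at was the only probe set whose TNF arrays all lay below all PBS arrays (0.904% of all probe sets did), at a log2 change of -0.31 ± 0.19 (adjusted p = 0.48). The count was 5 without the number 0 arrays (where 1.27% of all probe sets fell). It was 3 without any one of PBS number 1, PBS number 2, TNF number 2 or TNF number 3. With arrays scaled to equal medians it was 0. By the brightest probe set of each gene, 0.900% of all tested genes fell under that scaling, against 2.32% with the signals as deposited. The share over all probe sets is not given for it. For the fits without single arrays the share over all probe sets is not given here. With no replicate block limma called 0 (0% of all probe sets fell), and 4 had an unadjusted p under 0.05.

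With anti-LTBR alone 3 of the 22 fell against PBS and 0 rose, in Vcl and Tpm2, where 1.28% of all probe sets fell and 1.89% rose. Vcl 1416156_at fell by 12.3% (log2 -0.19 ± 0.041, adjusted p = 0.0221), Tpm2 1425028_a_at fell by 13.5% (log2 -0.21 ± 0.042, adjusted p = 0.0142) and Tpm2 1419738_a_at fell by 10.2% (log2 -0.16 ± 0.034, adjusted p = 0.0228). All 3 were lower in 4 of 4 numbers, and 0 member probe sets had arrays wholly below those of PBS, as 0.916% of all probe sets did. Tpm1 1423721_at was at -0.14 ± 0.045 (adjusted p = 0.131) and Tpm4 at 0.01 ± 0.035 (adjusted p = 0.893). The median over the 22 was -0.15 against -0.01 over all probe sets, with 20 estimates below 0. The count moved with single arrays: 1 was left without the number 0 arrays (where 0.492% of all probe sets fell) or without PBS number 2, and 0 without PBS number 1, anti-LTBR number 1 or anti-LTBR number 2. It was also 0 with arrays scaled to equal medians. By the brightest probe set of each gene, 0.410% of all tested genes fell under that scaling, against 1.77% with the signals as deposited. The share over all probe sets is not given for it. For the fits without single arrays the share over all probe sets is not given here. With no replicate block limma called 0 (0% of all probe sets fell), and 1 had an unadjusted p under 0.05.

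The combination was set directly against each agonist. Against TNF, 4 probe sets of 3 genes were lower and 0 higher, where 2.29% of all tested probe sets were lower and 2.42% higher. They were Cald1 1424770_at at -0.48 ± 0.076 (adjusted p = 0.00341), Tpm2 1425028_a_at at -0.29 ± 0.046 (adjusted p = 0.00341), Tpm2 1419738_a_at at -0.22 ± 0.037 (adjusted p = 0.00479) and Vcl 1416156_at at -0.22 ± 0.045 (adjusted p = 0.0127). Against anti-LTBR the same 4 and Tpm1 1423049_a_at were lower, 5 in all, where 1.91% of all tested probe sets were lower and 1.91% higher. The Tpm2 changes there were -0.37 ± 0.046 (adjusted p = 0.000636) and -0.30 ± 0.037 (adjusted p = 0.000672), and Vcl 1416156_at was at -0.27 ± 0.045 (adjusted p = 0.00441). Cald1 1424770_at was at -0.43 ± 0.076 (adjusted p = 0.00553) and Tpm1 1423049_a_at at -0.28 ± 0.069 (adjusted p = 0.039). Both comparisons use the same 3 combination arrays. The counts were 4 and 5 without the number 0 arrays (where 1.54% and 1.30% of all probe sets were lower), and both were 0 in limma with no replicate block (0% of all probe sets were lower), where 2 and 4 had an unadjusted p under 0.05.

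Between TNF and anti-LTBR 0 of 22 probe sets passed the threshold in limma (0.585% of all probe sets did, in either direction), 2 had an unadjusted p under 0.05 (0 with no replicate block), and the log2 estimates ran from -0.19 to 0.37. The interaction term asks whether the combination differs from the sum of both single effects on the log2 scale. It passed the threshold in limma for 0 of 22 (0.0239% of all probe sets), with 1 at an unadjusted p under 0.05 and 0 with no replicate block. Without the number 0 arrays limma called 0 of 22 in both tests (3 and 1 had an unadjusted p under 0.05), where 0.484% of all probe sets passed between the agonists and 0.0895% for the interaction. With all arrays, the probe set with an unadjusted p under 0.05 for the interaction was Cald1 1424770_at, at -0.49 ± 0.10 (interval -0.72 to -0.27, adjusted p = 0.203). For Vcl 1416156_at the term was -0.04 ± 0.061 (interval -0.17 to 0.10) and for Tpm2 1425028_a_at -0.08 ± 0.062 (interval -0.22 to 0.05).

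At 2 h and 6 h each group had a single array, so the values have no replicate check and no test, and a log2 difference past 1.5-fold was counted. Among the 22 probe sets 0 passed that fold with TNF at 2 h (3.28% of all probe sets were lower by that much), 0 with anti-LTBR at 2 h (2.42%), 1 was lower with TNF at 6 h (2.94%) and 0 with anti-LTBR at 6 h (2.10%). The exception was the dim Tpm1 1456623_at, at -0.64. Vcl 1416156_at read 14740, 13438 and 13403 with TNF at 2, 6 and 24 h, 14775.5, 15544 and 12661 with anti-LTBR, and 15747, 14719 and 14717 with PBS, all on number 0 arrays. Its TNF differences were thus -0.10, -0.13 and -0.13 and those of anti-LTBR -0.09, 0.08 and -0.22. Tpm2 1419738_a_at had TNF differences of -0.09, -0.22 and -0.24 at the 3 times. Tln1 1448402_at was at -0.13, -0.37 and 0.01, and Zyx 1417240_at was at -0.18, -0.26 and -0.04. The difference with TNF at 6 h was below 0 for 19 of 22 probe sets, with a median of -0.16 against 0.01 over all probe sets. The number 0 arrays are the ones with the endothelial markers given above, so none of these values covers the cultures with the other numbers.

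**Figure D3:**
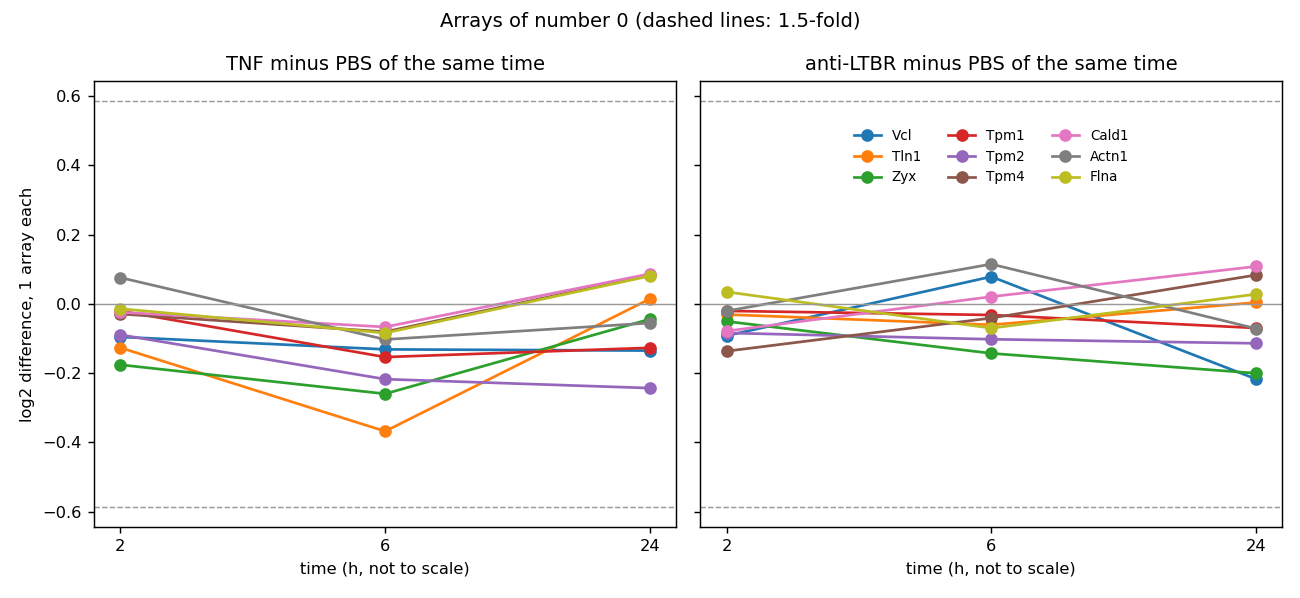
Log2 difference from the PBS array of the same time at 2, 6 and 24 h for the brightest probe set of each gene, on number 0 arrays only (1 array a point, no error), for TNF and for anti-LTBR. All points lie inside the dashed 1.5-fold lines.

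Values with PBS alone over time rest on number 0 arrays, 1 at each time, so they have no replicates and no test. They do not cover the other numbers. Of the 22 probe sets 19 were lower at 24 h than at 2 h, with a median log2 difference of -0.11 against 0.02 over all probe sets. Among the 22, 1 was lower past 1.5-fold, Zyx 1438552_x_at at -0.84 (2.14% of all probe sets were). Vcl 1416156_at differed by -0.10.

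Correlations between members across the 15 arrays at 24 h ranged from -0.16 to 0.95. With the mean of each number removed, Vcl and Tpm2 correlated at 0.95, Tln1 and Flna at 0.90, and Tpm1 and Tpm2 at 0.89 (Pearson's r over 15 arrays). Lower values were 0.43 for Tpm2 and Tln1, 0.24 for Cald1 and Flna and 0.21 for Cald1 and Tln1. Tpm4 was at -0.16 with Flna and with Tln1, -0.05 with Vcl, 0.62 with Cald1 and 0.25 with the mean of the members. The other 8 correlated with that mean at 0.72 (Cald1, Flna) to 0.93 (Actn1), the mean itself including each of them. Over the 12437 other tested genes the correlation with that mean had a median of 0.00, with quartiles at -0.32 and 0.36. All these points share the same arrays, groups and scaling, and the treatment effects above are part of them. The member mean was highest on PBS number 2, at 1.88 SD units, and lowest on the combination arrays (-1.19, -0.88 and -0.83) and TNF number 2 (-0.91).

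**Figure D4:**
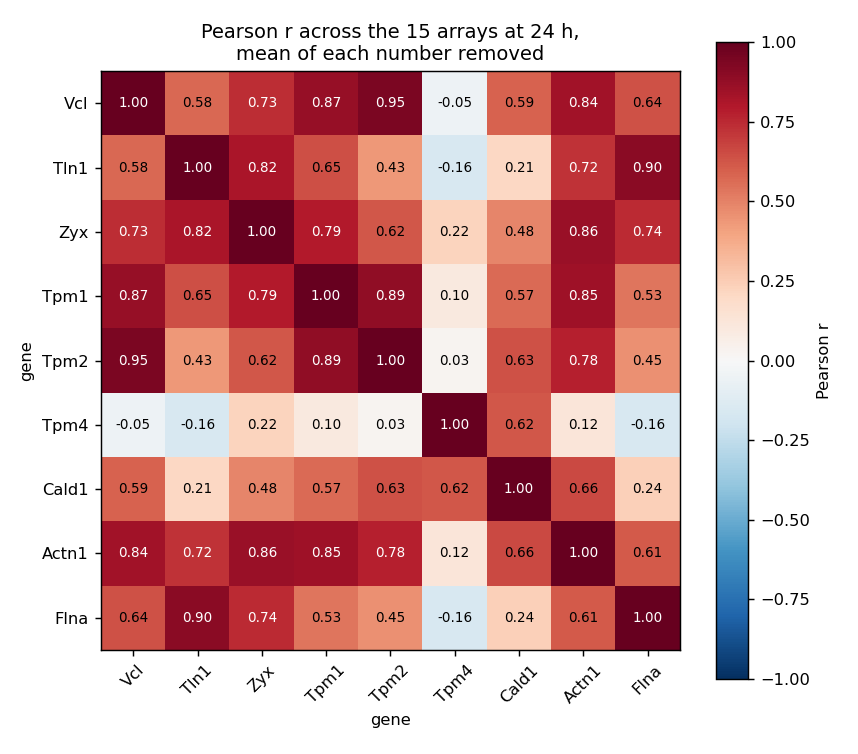
Pearson's r between the brightest probe sets of the 9 genes over the 15 arrays at 24 h, after the mean of each array number was removed. The Tpm4 row and column hold the lowest values, and Vcl with Tpm2 the highest pair (0.95).

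The array number took a median of 52.3% of the variance of the 22 probe sets at 24 h, the treatment group 21.3% and the residual 17.0%, against 54.7%, 14.6% and 24.0% over all tested probe sets. The group share was highest for the Tpm2 probe sets, at 78.3% for 1425028_a_at and 73.2% for 1419738_a_at, and for Vcl 1416156_at, at 69.7%. Tln1 1436042_at and Cald1 1433147_at lay at the other end, with 89.6% and 89.1% between numbers. Among 12437 other genes, the profiles most like the member mean over the same 15 arrays were those of Loxl1 (r = 0.94), an enzyme of elastic fibre assembly, Tagln (0.94), an actin-binding protein of smooth muscle, Ids (0.93), a lysosomal sulfatase, Nab2 (0.93), a co-repressor of early growth response factors, and Tgfb1i1 (0.93), an adhesion adaptor of the paxillin family. Usp3 (-0.94), Nt5c (-0.93) and Chmp1b (-0.92) had the lowest.

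Other genes of the same structures were read from 8 lists of 109 tested genes, with the brightest probe set of each gene. With TNF plus anti-LTBR 41 fell and 9 rose against PBS, 50 in all, where 9.53% of all tested genes fell and 8.27% rose. With TNF alone 18 passed (14 fell, 4 rose), where 2.32% of all genes fell and 2.71% rose, and with anti-LTBR alone 11 (9 fell, 2 rose), where 1.77% fell and 2.19% rose. Without the number 0 arrays the counts were 47 (39 fell), 13 (11 fell) and 6 (5 fell), where 8.69%, 1.64% and 0.676% of all genes fell. With no replicate block 4 of 109 passed for the combination (Acta1, Myh10 and Csrp1 fell, Tmod1 rose), where 0.554% of all genes fell and 1.74% rose, so each of the 8 lists then had 0 or 1 call. For each agonist alone limma then called 0 of 109 (2 for TNF and 3 for anti-LTBR had an unadjusted p under 0.05), where 0% of all genes fell for both and 0.313% rose with TNF and 0.137% with anti-LTBR. With arrays scaled to equal medians 23 fell and 7 rose for the combination, 5 fell and 4 rose for TNF, and 2 fell and 4 rose for anti-LTBR, so that the balance for anti-LTBR turned. Of all genes 6.29% fell and 6.73% rose for the combination under that scaling, 0.900% fell and 2.49% rose for TNF, and 0.410% fell and 2.88% rose for anti-LTBR. The lists were chosen with earlier results of these data known.

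Among the actin isoforms 3 of 6 fell and 0 rose. Acta1, the actin of skeletal muscle, averaged 122.6 ± 19.5 with both agonists and 464 ± 193 with PBS (SD, n = 3 and n = 4), a log2 change of -1.56 ± 0.15 (adjusted p = 8.20e-06). Actg2, the enteric smooth muscle actin, was at -0.75 ± 0.15 (adjusted p = 0.0041), and Actg1, a cytoplasmic actin, at -0.15 ± 0.033 (adjusted p = 0.00641). Acta2, the main actin of vascular smooth muscle, did not pass (log2 -0.10 ± 0.041, adjusted p = 0.117), nor did the cytoplasmic Actb (-0.07 ± 0.036, adjusted p = 0.235) and the cardiac Actc1 (0.14 ± 0.21, adjusted p = 0.748).

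Of 12 tested genes for smooth muscle myosin and its control, 7 fell and 0 rose, among them the non-muscle heavy chain Myh10 (log2 -0.54 ± 0.045, adjusted p = 3.02e-06), the regulatory light chain Myl9 (-0.61 ± 0.069, adjusted p = 3.87e-05), the essential light chain Myl6 (-0.55 ± 0.11, adjusted p = 0.00305) and the smooth muscle heavy chain Myh11 (-0.54 ± 0.11, adjusted p = 0.00453). Of 11 relatives of tropomyosin and caldesmon that coat or cap the thin filament, 6 fell and 2 rose. Calponin 1, Cnn1, was at -1.14 ± 0.14 (adjusted p = 5.94e-05), Cnn3 at -0.32 ± 0.045 (adjusted p = 0.000262) and Tagln at -0.31 ± 0.044 (adjusted p = 0.000279). Tropomodulin 1, Tmod1, which caps the slow-growing filament end, rose (0.97 ± 0.13, adjusted p = 0.000154).

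The lists of cross-linkers and of assembly factors held genes that fell and genes that rose. Among 14 cross-linkers and membrane linkers 5 fell and 2 rose: radixin, Rdx, was at -0.36 ± 0.057 (adjusted p = 0.000624) and dystrophin, Dmd, at -0.31 ± 0.070 (adjusted p = 0.00876), while the bundling protein fascin, Fscn1, was at 0.48 ± 0.081 (adjusted p = 0.00101) and moesin, Msn, at 0.17 ± 0.036 (adjusted p = 0.00582). Among 21 genes of filament assembly and turnover 4 fell and 1 rose, and 16 did not pass. Enah, which promotes filament elongation, was at -0.65 ± 0.090 (adjusted p = 0.000206), the severing protein gelsolin, Gsn, at -0.18 ± 0.042 (adjusted p = 0.0112), and the monomer-binding thymosin Tmsb4x at -0.16 ± 0.037 (adjusted p = 0.00913). The capping protein Capg rose (0.39 ± 0.065, adjusted p = 0.001).

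At the adhesion side, 6 of 21 scaffold and kinase genes fell and 2 rose. The LIM proteins Csrp1 (-0.44 ± 0.043, adjusted p = 1.07e-05), Fblim1 (-0.44 ± 0.059, adjusted p = 0.000155) and Lims2 (-0.74 ± 0.11, adjusted p = 0.000357) fell, and the adaptor Bcar1 rose (0.36 ± 0.063, adjusted p = 0.00145). Among 14 integrin subunits 6 fell and 1 rose. Itga8, Itga1, Itgb5 and Itga9 were at -0.40 ± 0.040 (adjusted p = 1.30e-05), -0.88 ± 0.15 (adjusted p = 0.00119), -0.22 ± 0.040 (adjusted p = 0.00165) and -0.72 ± 0.14 (adjusted p = 0.00305), in that order.

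Of 10 factors of the serum response factor pathway, 4 fell and 1 rose. Fhl2, a LIM cofactor, was at -0.82 ± 0.073 (adjusted p = 5.75e-06), and the target Ccn1 (Cyr61 in the annotation) at -0.23 ± 0.039 (adjusted p = 0.00111). Fhl1 was at -0.13 ± 0.039 (adjusted p = 0.0359), and Mrtfa (Mkl1 in the annotation), the actin-sensing coactivator, rose (0.36 ± 0.10, adjusted p = 0.0214). Acta1 and Fhl2 also fell with each agonist alone: Acta1 was at -0.62 with TNF and -0.70 with anti-LTBR (adjusted p = 0.0169 and 0.0102), and Fhl2 at -0.48 and -0.52 (adjusted p = 0.00093 and 0.000596).

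**Figure D5:**
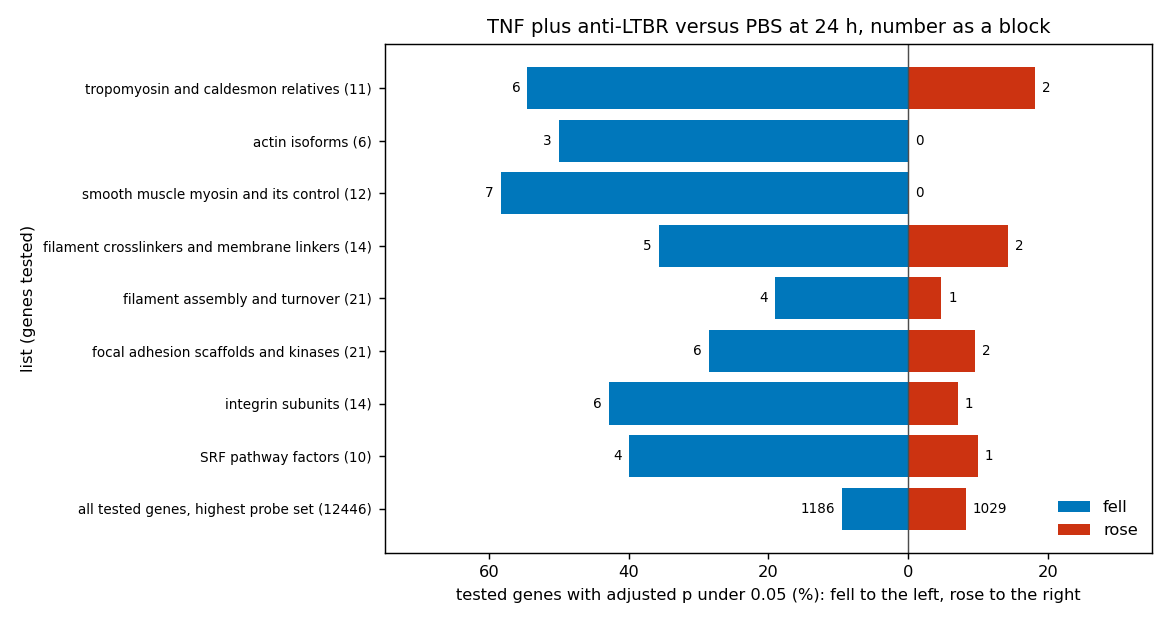
Percent of the tested genes of each list that fell or rose under TNF plus anti-LTBR against PBS (adjusted p under 0.05), with all tested genes for comparison (9.53% fell, 8.27% rose). The myosin (7 of 12) and actin (3 of 6) lists hold falls only, and the assembly list has the lowest share of falls (4 of 21).

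Markers of the cells themselves moved beside these changes. Of 8 smooth muscle markers 5 fell with both agonists, 3 with TNF and 2 with anti-LTBR, and 0 rose, where 9.53%, 2.32% and 1.77% of all tested genes fell. Of the 8 markers 7 also stand in the lists above (Cnn1, Tagln, Smtn and Lmod1 among the relatives of tropomyosin and caldesmon, Myh11 and Mylk in the myosin list, Acta2 among the actins), so their falls are counted there too. Without the number 0 arrays 5, 3 and 1 of the 8 fell. With no replicate block limma called 0 genes of the 6 marker lists in each of the 3 comparisons with PBS, and 6, 0 and 0 of the 44 tested markers had an unadjusted p under 0.05. Their summed signal ranged from 33049 to 44701 with TNF plus anti-LTBR, 39225 to 46131 with TNF, 38325 to 46484 with anti-LTBR and 41594 to 53851 with PBS. Endothelial markers showed 1 fall among 16 tested and summed to 3484 to 6305 with both agonists and 3606 to 26192 with PBS, the upper end being the number 0 array. For macrophage markers 0 of 8 tested passed in limma, and the sums were 1755 to 5594 with both agonists and 1494 to 6068 with PBS. Fibroblast markers showed 2 rises among 7 tested, where 8.27% of all tested genes rose, with sums of 17864 to 24967 against 18115 to 21395. In that list 1 gene fell with TNF and 1 rose with anti-LTBR, where 2.32% and 2.19% of all tested genes did. Adipocyte markers showed 1 fall among 3 tested (sums of 881.8 to 1104 against 904.8 to 1598), and lymphocyte markers 0 among 2 (546.3 to 1033 against 541.6 to 1010). Without the number 0 arrays 1 of 10 tested endothelial and 0 of 3 adipocyte markers fell with both agonists, where 8.69% of all genes fell. Fibroblast markers then showed 2 rises among 7 with both agonists and 0 rises with anti-LTBR. With TNF 1 of the 7 then fell, where 1.64% of all genes fell. Macrophage and lymphocyte markers then had 0 calls in limma with both agonists. In each of the 6 marker lists 0 genes were listed at 0 on any array, and 3 of 11 macrophage, 3 of 6 adipocyte and 4 of 6 lymphocyte markers were under the signal filter. The part of these cell types in the member changes was not tested.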

How the data were processed

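Total RNA of 21 samples was measured on 1 Affymetrix mouse array each. The values deposited by the authors are linear signal intensities from GCOS 1.4, per the submitters' processing notes, and every array has a mean intensity of 500.0 once the highest and lowest 2% of probe sets are left out; for the background correction, the method was not given in the sources used here. Probe sets were named from the platform annotation, in which 34945 carry 1 gene symbol, 932 several and 9160 none, and 64 control probe sets were left out. None of the 9 member symbols had another name in RefSeq.

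From these, log2(signal + 10.2) was taken, 10.2 being the 10th percentile of all signals at 24 h, with no further normalization, and a fold change on this scale understates the change of dim probe sets. The 15 arrays at 24 h were fitted together with limma 3.58.1 in R 4.3.3 (lmFit and eBayes with a variance trend), with the array number as a block (8 residual degrees of freedom). P-values were adjusted by Benjamini-Hochberg over the 25110 tested probe sets of a comparison, 12446 genes among them, and a call is an adjusted p under 0.05. The computation was tested on simulated data.

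The number in the labels pairs the arrays only in so far as the data show it: every same-number pair of arrays correlated at 0.401 or more. The block was made part of the fit because the combination lacks number 0, with the results of both fits on these data already known, so the values with no replicate block (11 residual degrees of freedom) stand beside the counts of members, of related genes in all and of markers.

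Members and lists were chosen with earlier results of these data known. The text names every member probe set, every actin isoform gene, and Pecam1, Cdh5 and Kdr among the endothelial markers. It also names up to 4 called genes of each pathway list with the smallest adjusted p for TNF plus anti-LTBR against PBS. The 5 genes most like the member mean and the 3 least like it are named too. Lists count each gene by its probe set with the highest mean. Other settings tried were the block, the pseudocount, the scaling, quantile normalization, the signal filter, the variance trend, 1 probe set per gene, fits of only the compared groups, and each array and each number left out in turn. The number of arrays limits the precision. The protein sequences of the members were not used here.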

Additional observations from a re-analysis of the deposited data

Results flagged for a closer look

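Among 66 sets of 4 arrays of a group and member probe set at 24 h, 5 held 1 array far from the other 3, by a gap beyond Dixon's 95% critical value for 4 samples; chance gives about 1 in 20. The Tln1 probe set 1436042_at was low on number 1 with TNF, at 119.3 against 259.3 to 282.9 on the others, and on number 1 with PBS, at 168.6 against 279.1 to 285.8. Tpm1 1456623_at was low on number 1 with anti-LTBR, at 79.2 against 129.4 to 136.4. Tpm2 1449577_x_at was high on number 1 with TNF, at 740.7 against 346.4 to 410.4, and Tpm2 1419739_at was high on number 3 with TNF, at 312.3 against 191.5 to 203.7. All 5 lie on dim probe sets, 4 of them on arrays with the number 1.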

How the results depend on the processing

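No called member value changed sign under the settings run. The replicate block moved most: with no replicate block the calls against PBS were 2 for TNF plus anti-LTBR, 0 for TNF and 0 for anti-LTBR, and 0 for the combination against either agonist, while the related genes gave 4, 0 and 0. Arrays scaled to the same median gave 0 calls for TNF, 0 for anti-LTBR and 2 for the combination against TNF, and 30 (23 fell, 7 rose), 9 (5 and 4) and 6 (2 and 4) related genes, where the signals as deposited gave 50 (41 and 9), 18 (14 and 4) and 11 (9 and 2); this scaling put the median of all probe sets at 0.03 for TNF and 0.07 for anti-LTBR, against -0.02 and -0.01. With no variance trend there were 2 calls for TNF, 0 for anti-LTBR, 2 and 3 for the combination against TNF and anti-LTBR, and 7 and 4 related genes for TNF and anti-LTBR. With no filter on dim signals TNF had 3 calls and anti-LTBR 1. With only the 2 groups compared TNF had 2 calls and 8 related genes. With 1 probe set per gene, of 9, the calls were 4 for the combination, 3 for TNF, and 2 for the combination against TNF and against anti-LTBR, fewer by construction. Leaving out 1 array or 1 number gave 8 to 13 calls for the combination, 2 to 6 for TNF, 0 to 3 for anti-LTBR, 1 to 6 and 3 to 6 for the combination against TNF and anti-LTBR, 0 to 0 for TNF against anti-LTBR and 0 to 0 for the interaction. For related genes it gave 28 to 52, 6 to 19 and 2 to 14. Single arrays that moved these by over 1.5 times were PBS 1 (7), TNF 1 (11) and TNF 2 (8) for TNF, and PBS 1 or anti-LTBR 0 (5), anti-LTBR 1 or 3 (6) and PBS 2 or anti-LTBR 2 (7) for anti-LTBR. At 2 h and 6 h the 1 value past 1.5-fold became 0 with a pseudocount of 50, 2 with scaling and 3 with no filter. Shares over all probe sets or genes stand above for the fits with no replicate block, without number 0 and, against PBS, with equal medians. For the other settings no such share is given, so these counts do not show whether the members moved apart from all probe sets. Where no construction is named, the cause was not tested. The 3 member probe sets under the signal filter have no test in the fit reported.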
